A study of Mus musculus with 2 samples.

Results

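The 10 genes of iron handling and ferroptosis described here were followed in the cell types of the postischemic mouse kidney: Fth1 and Ftl1 (ferritin storage), Tfrc and Slc11a2 (uptake), Slc40a1 (export), Aco1 and Ireb2 (iron sensing), and Gpx4, Aifm2 and Acsl4 (ferroptosis). They were taken by symbol, and the 10 symbols each matched 1 of the 32285 genes listed in the count tables. None of them served as a cell type marker or entered the clustering of the cells. The study sequenced single cells of kidney from 9-week-old male C57BL/6 mice, 24 h after bilateral renal ischemia-reperfusion. The control mouse received saline, and the treated mouse received JPI-289, an inhibitor of poly(ADP-ribose) polymerase, at 100 mg/kg into the peritoneal cavity immediately before reperfusion. Both mice had the surgery, no uninjured kidney was analysed here, and each group is 1 library, so no test between the groups was possible and every comparison is between these libraries.

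Iron bound to transferrin enters cells through the transferrin receptor (Tfrc) and leaves the endosome through the divalent metal transporter Slc11a2. Ferritin, a shell of heavy (Fth1) and light (Ftl1) chains, stores it, and ferroportin (Slc40a1) is the known exporter of cellular iron. When iron is low, the iron regulatory proteins encoded by Aco1 and Ireb2 bind iron-responsive elements (IREs), hairpins in the untranslated regions (UTRs) of mRNAs, which blocks translation from an element in the 5′ UTR and protects the mRNA from decay when the elements lie in the 3′ UTR. Ferroptosis is an iron-dependent death by peroxidation of membrane lipids, in which Acsl4 supplies the polyunsaturated lipids that oxidise, Gpx4 reduces lipid peroxides with glutathione, and Aifm2 regenerates lipid-soluble radical traps. The tubules of the ischemic kidney are a known site of this kind of death.

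The IREs are shown to set out which members hold such an element and in which UTR. The members were chosen as genes of iron handling and ferroptosis, so the matches are a description and not an independent result. The UTRs of GENCODE vM21 transcripts on the GRCm38 build were searched on the transcribed strand for a C, 5 bases, a loop of CAGTG followed by A, C or T, and 5 bases of which at least 4 pair with the first 5, G-U pairs allowed. The loop is in capitals, and each sequence is DNA, 5′ to 3′ on the gene's strand. Fth1 (chr19:9982733-9982759, plus strand), Ftl1 (chr7:45459780-45459806, minus strand) and Slc40a1 (chr1:45925466-45925492, minus strand) had 1 match each in the 5′ UTR.
Fth1: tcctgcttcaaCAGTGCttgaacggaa
Ftl1: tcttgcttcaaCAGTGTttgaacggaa
Slc40a1: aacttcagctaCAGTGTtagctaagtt

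Tfrc had 4 matches in its 3′ UTR on chromosome 16, plus strand, at 32631220-32631246, 32631599-32631625, 32631664-32631690 and 32631711-32631737, in the order shown. Slc11a2 had 1 in its 3′ UTR (chr15:100395154-100395180, minus strand), with 4 of 5 pairs where all the others had 5.
Tfrc site 1: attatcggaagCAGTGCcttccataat
Tfrc site 2: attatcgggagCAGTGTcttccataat
Tfrc site 3: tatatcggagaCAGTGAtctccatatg
Tfrc site 4: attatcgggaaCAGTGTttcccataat
Slc11a2: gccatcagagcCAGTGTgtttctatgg

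Of all genes with a UTR in the annotation, 0.684% of 20916 held such a match in a 5′ UTR and 3.06% of 21707 in a 3′ UTR, or 0.110% and 0.461% with all 5 pairs. Ireb2, Aco1, Gpx4, Aifm2 and Acsl4 held no match, which says only that these letters are not in the annotated UTRs.

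The control library held 38328760 unique molecular identifiers (UMIs, 1 per captured RNA molecule) and the JPI-289 library 35548396, and 3758 and 5036 cells were kept, with a median of 2050 and 1868 UMIs. The libraries shared 23 barcodes among the kept cells, against 25.7 expected from the length of the barcode list. Clusters were named from kidney marker lists and are called "like" for that reason: PT (proximal tubule), TAL (thick ascending limb), DCT/CNT (distal convoluted and connecting tubule), CD (collecting duct), EC (endothelial cell), stroma, C1q+ macrophage, monocyte, neutrophil and RBC (red blood cell). PT-like cells take in clusters where a list of injured PT markers scored highest and the PT list next. In 7 of these 11 classes every marker was highest in its own class in both libraries. Levels are a gene's summed UMIs in a class, scaled to 1000000 UMIs of that class (CPM), with an exact 95% Poisson interval. A difference is given as a log2 ratio, JPI-289 over control, with an exact binomial interval. The intervals hold the error of counting and leave out any variation between animals. Levels are compared between classes or libraries and not between genes, since 5′ counts were not scaled to transcript length.

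Ferritin transcripts were a large share of the RNA of the postischemic kidney and were more abundant in tubule cells of the JPI-289 library. Fth1 and Ftl1 together made up 3.23% of the UMIs of all kept control cells and 4.31% with JPI-289. In PT-like cells the share was 4.74% and 6.75%. In TAL-like cells it was 2.91% and 5.70%, and in neutrophil-like cells 4.37% and 4.21%.

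Fth1, the heavy chain with the ferroxidase activity, was highest in PT-like cells in both libraries, at 42003 CPM in control (341470 UMIs) and 58713 CPM with JPI-289 (431535 UMIs), a log2 ratio of 0.48 (0.48 to 0.49). In the control library neutrophil-like cells followed at 40563 CPM and C1q+ macrophage-like cells at 32540 CPM, and EC-like cells (6444 CPM) and RBC-like cells (5162 CPM) were lowest. In TAL-like cells Fth1 had 26349 CPM in control and 53980 CPM with JPI-289, a log2 ratio of 1.03 (1.01 to 1.06), so that this class came next after PT-like cells in the JPI-289 library. The ratio in C1q+ macrophage-like cells was 0.69 (32540 and 52411 CPM) and ranged from 0.29 to 0.76 over the alternatives in processing. The markers of that class summed to 14633 and 7334 CPM in it (0 of 8 higher), and RBC markers to 86.6 and 3596 CPM (6 of 7 higher). The part of these lists in that ratio was not tested. In monocyte-like cells the Fth1 ratio was -0.14 and in neutrophil-like cells -0.052. Fth1 was thus not higher with JPI-289 in every class that holds much of it. Of the TAL markers, 4 of 7 in control and 5 of 7 with JPI-289 were highest in TAL-like cells. These markers summed to 7068 and 9208 CPM there, with 1 of 7 higher. Sums of other lists went both ways, such as injured PT (106 and 640 CPM), DCT/CNT (921 and 559 CPM) and RBC (1393 and 123 CPM). The part of these lists in the TAL-like ratios of Fth1 and the genes below was not tested.

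The RBC-like ratio of Fth1 was 1.23 (5162 and 12136 CPM). Free RNA was measured in barcodes under 100 UMIs that hold no cell. Its share in a class was estimated from the marker lists of unrelated cell types. It was the median ratio of their level in the class to that in free RNA. For RBC-like cells this estimated share was 8.22% in control and 23.1% with JPI-289, and with free RNA subtracted the Fth1 ratio was 0.60. In EC-like cells the Fth1 level lay below that of free RNA (25269 CPM in control and 34741 CPM with JPI-289), and the ratio of 0.22 became -2.50 with free RNA subtracted. Stroma-like cells (7667 and 7641 CPM) were also below free RNA, and their ratio moved from -0.0048 to -1.06 after subtraction and to 1.26 with each library clustered alone. No direction was read for Fth1 in the RBC-, EC- and stroma-like classes. Monocyte-, DCT/CNT-, CD principal- and CD intercalated-like cells also lay below free RNA in both libraries. With free RNA subtracted their ratios were -0.23, 0.40, 0.54 and 0.60, in that order. In PT-like cells the estimated share of free RNA was 18.4% in control and 4.20% with JPI-289. With free RNA subtracted the PT-like ratio of Fth1 was 0.39, and over the alternatives in processing it ranged from 0.32 to 0.68.

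Ftl1, the light chain, was highest in monocyte-like cells of the control library (8108 CPM) and in PT-like cells of the JPI-289 library (8813 CPM). In PT-like cells it had 44267 and 64771 UMIs, a log2 ratio of 0.69 (0.68 to 0.71), or 0.59 with free RNA subtracted. CD intercalated-like cells had a ratio of 0.71 (0.54 to 0.88) on 474 and 700 UMIs. Their levels (2368 and 3868 CPM) lay below that of free RNA (2907 and 3997 CPM). Over the alternatives in processing that ratio ranged from 0.23 to 0.74. In TAL-like cells the light chain differed little, at 0.13 (0.060 to 0.21). The UMIs of Fth1 per UMI of Ftl1 were thus 9.50 in control and 17.7 with JPI-289 in TAL-like cells, against 7.71 and 6.66 in PT-like cells. A near-identical copy, Ftl1-ps1, is listed as its own gene and had 2572 and 3894 UMIs in the kept cells. The counts of Ftl1 are therefore uncertain by the reads that match both.

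**Figure D1:**
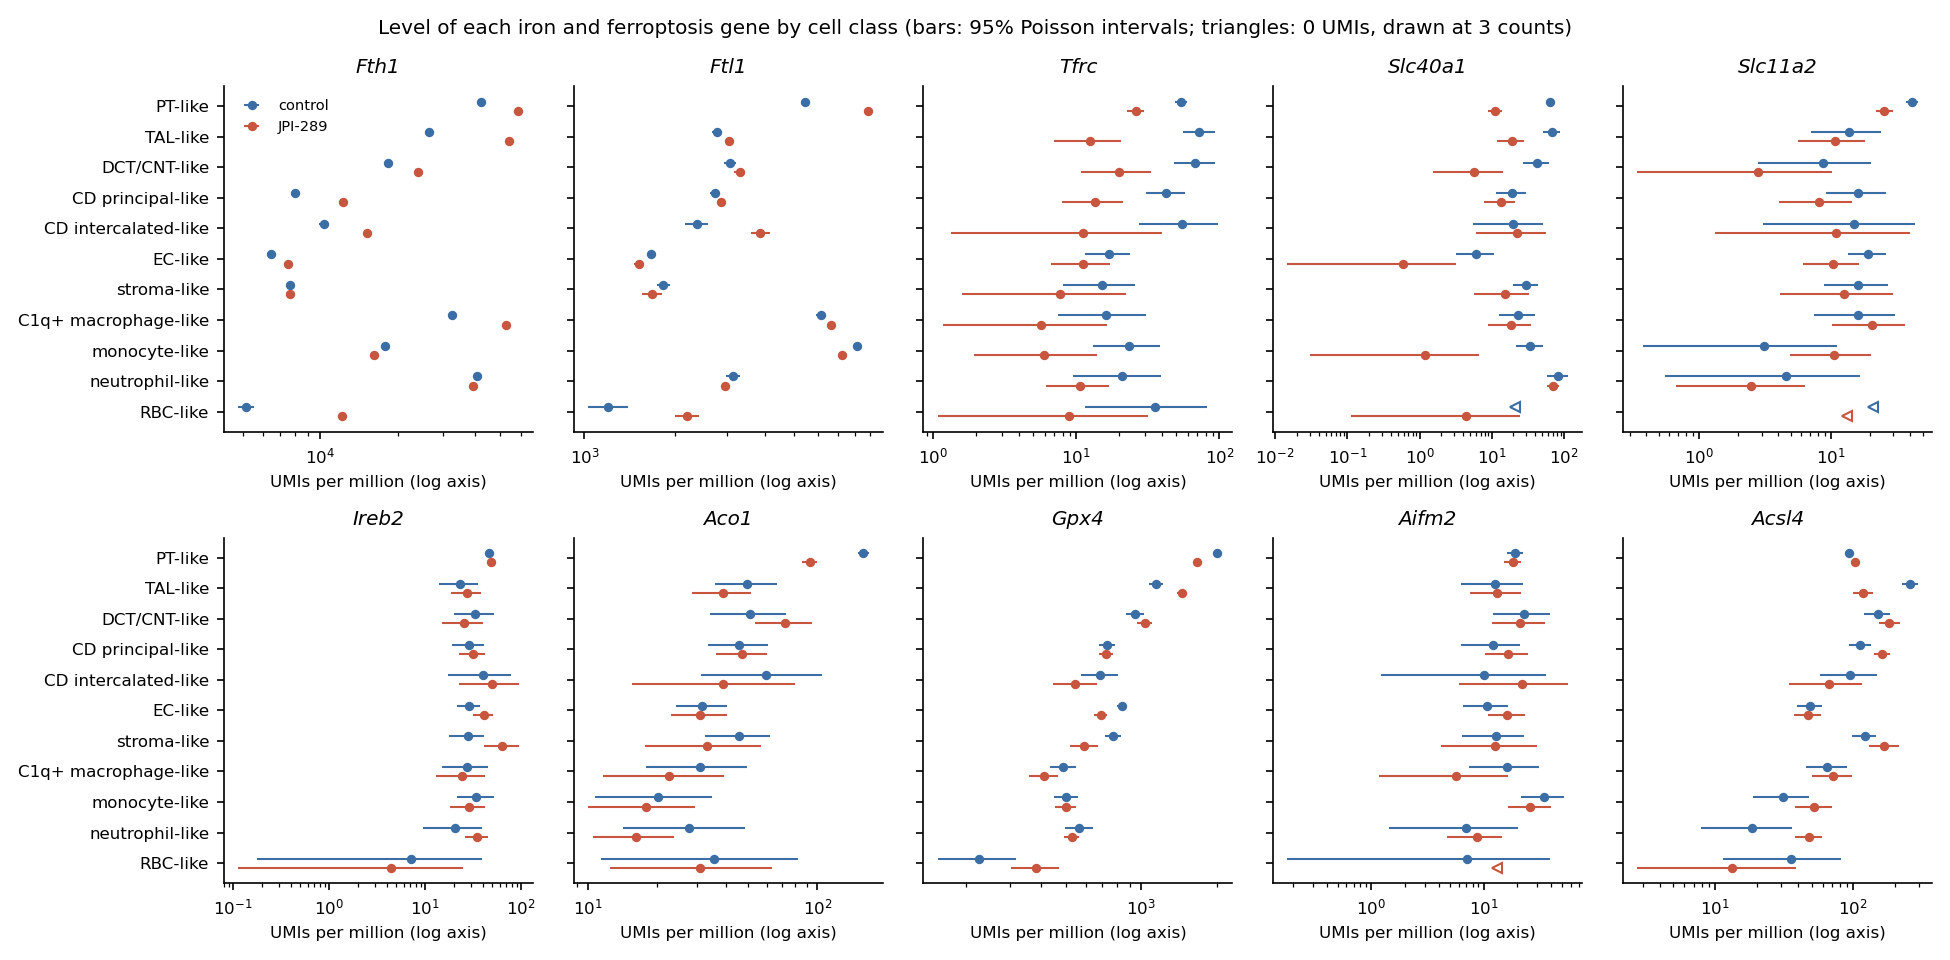
Level of each of the 10 genes in the 11 cell classes, in CPM on a log axis, for the control (blue) and JPI-289 (red) libraries. Points are summed levels, bars exact 95% Poisson intervals, and open triangles classes with 0 UMIs drawn at the level of 3 counts. Slc40a1 of PT-like cells lies at 64.0 CPM in control and 11.0 CPM with JPI-289, while in neutrophil-like cells the intervals overlap.

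Slc40a1, the iron exporter, was lower in the JPI-289 library in PT-, TAL-, DCT/CNT- and monocyte-like cells and close between the libraries in neutrophil-like cells. PT-like cells had 520 UMIs in control (64.0 CPM, 58.6 to 69.7) and 81 with JPI-289 (11.0 CPM, 8.75 to 13.7), a log2 ratio of -2.53 (-2.89 to -2.20) or 5.77-fold lower. TAL-like cells had 59 and 23 UMIs (67.8 and 19.0 CPM), a ratio of -1.82 (-2.60 to -1.12). DCT/CNT-like cells had 24 and 4 UMIs, a ratio of -2.75 (-4.88 to -1.35). TAL markers inside this DCT/CNT-like class summed to 1818 CPM in control and 426 CPM with JPI-289, none of 7 higher and 2 at 0 with JPI-289, and their part in the Slc40a1 and Tfrc ratios of the class was not tested. The intervals of control and JPI-289 levels did not overlap in any of these tubule classes.

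Neutrophil-like cells held the highest Slc40a1 level in both libraries, with 36 UMIs in control (82.8 CPM, 58.0 to 115) and 114 with JPI-289 (70.8 CPM, 58.4 to 85.1), a ratio of -0.24 (-0.78 to 0.36). In control the interval overlapped those of TAL-, PT- and DCT/CNT-like cells, while with JPI-289 neutrophil-like cells stood apart from every other class compared. In monocyte-like cells there were 22 UMIs in 68 control cells and 1 UMI in 131 JPI-289 cells, a ratio of -4.29 (-10.21 to -2.22). C1q+ macrophage markers inside this monocyte-like class summed to 2549 CPM in control and 860 CPM with JPI-289, all 8 of them lower, and none was at 0. Their part in the Slc40a1 ratio was not tested. C1q+ macrophage-like cells themselves had 13 and 10 UMIs of Slc40a1 (-0.31, -1.67 to 0.98), a difference not detectable at this depth, and at the lower clustering resolution the ratio of that class was -1.83. CD principal-like cells had 19 and 18 UMIs (-0.52, -1.54 to 0.49), and EC-like cells 12 and 1, under the minimum of 20 UMIs over both libraries used for ratios.

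Free RNA held 31.7 CPM of Slc40a1 in control and 14.5 CPM in the JPI-289 library. The level of PT-like cells was above it in control and below it with JPI-289. With free RNA subtracted, the ratio of Slc40a1 was -2.70 in PT-like cells, -1.88 in TAL-like cells and -0.18 in neutrophil-like cells. Over all barcodes, called as cells or not, Slc40a1 had 1614 and 517 UMIs, a ratio of -1.53 (-1.68 to -1.39).

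Tfrc, which takes up transferrin-bound iron, was lower with JPI-289 in all 4 tubule classes with enough UMIs. In PT-like cells it had 440 UMIs in control (54.1 CPM) and 191 with JPI-289 (26.0 CPM), a log2 ratio of -1.06 (-1.31 to -0.81). In TAL-like cells it had 63 and 15 UMIs (72.3 and 12.4 CPM), a ratio of -2.51 (-3.47 to -1.72). The ratio was -1.75 (-2.78 to -0.87) in DCT/CNT-like and -1.65 (-2.55 to -0.84) in CD principal-like cells, where the median depth per cell was 9236 UMIs in control and 1539 with JPI-289.

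Outside the tubule, Tfrc had at most 33 UMIs per class and library. It was -1.88 (-3.79 to -0.44) in monocyte-like cells, on 15 and 5 UMIs, and the intervals in EC-like (-0.59) and neutrophil-like cells (-1.01) included 0. In EC-like cells the sign turned to 0.26 with free RNA subtracted. Free RNA held 63.5 CPM of Tfrc in control and 17.5 CPM with JPI-289, close to the levels of the tubule classes in each library. With it subtracted, PT-like cells had a ratio of -0.97 and TAL-like cells of -2.57.

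Slc11a2, which moves iron out of the endosome, was highest in PT-like cells in both libraries. They had 336 UMIs in control (41.3 CPM, 37.0 to 46.0) and 188 with JPI-289 (25.6 CPM, 22.1 to 29.5), a ratio of -0.69 (-0.96 to -0.43). These intervals overlapped those of sparser classes, such as CD intercalated-like cells in control (3.09 to 43.8 CPM) and C1q+ macrophage-like cells with JPI-289 (10.3 to 36.9 CPM). Free RNA held 40.8 and 29.1 CPM of Slc11a2, close to the PT-like level in control and above it with JPI-289. EC-like cells had 38 and 18 UMIs (-0.86, -1.78 to -0.038), but the ratio was 0.13 when each cell had equal weight. In CD principal-like cells the 16 and 11 UMIs gave an interval that included 0. No UMI of Slc11a2 was seen in RBC-like cells of either library, which, taken as a limit of 3 counts, allows up to 21.2 CPM in control and 13.2 CPM with JPI-289.

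**Figure D2:**
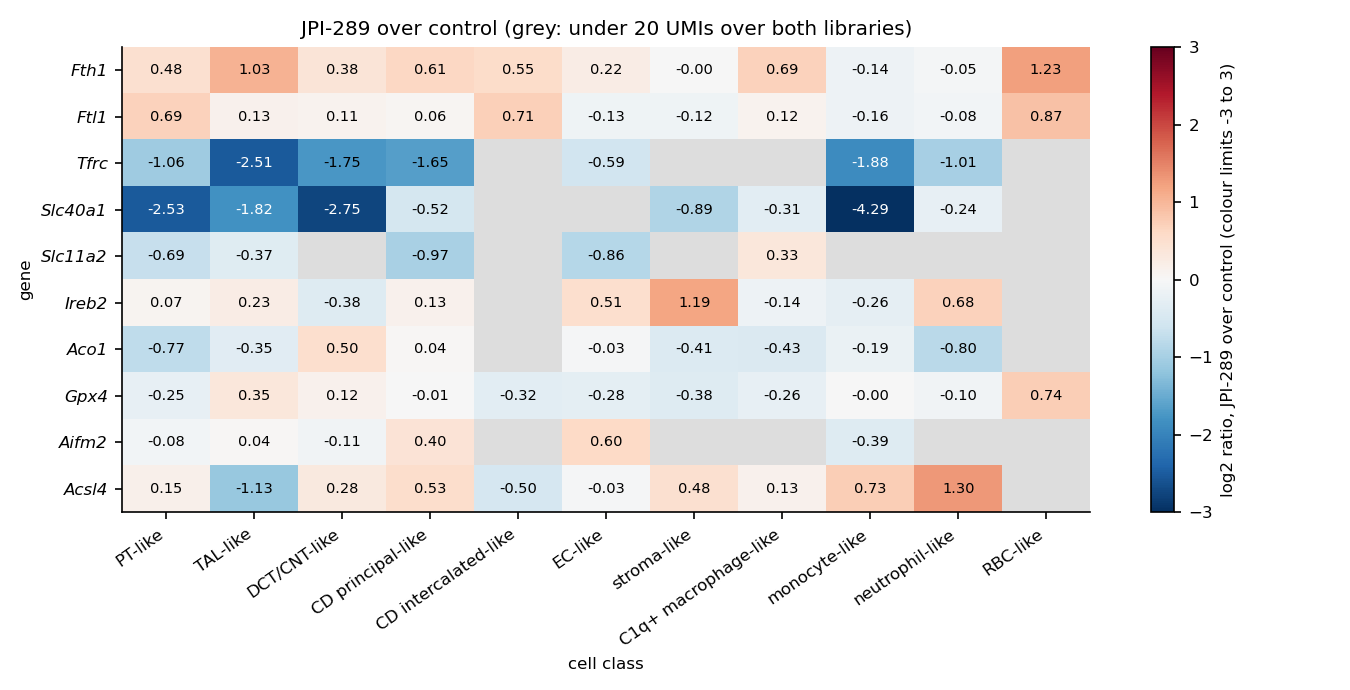
Log2 ratio of JPI-289 over control for each of the 10 genes (vertical) in each cell class (horizontal), written in the cells and coloured from -3 to 3, grey where a gene had under 20 UMIs over both libraries. Tfrc and Slc40a1 are below 0 in every class with a value, although Tfrc in EC-like cells turned to 0.26 with free RNA subtracted. Fth1 is furthest above 0 in TAL- and RBC-like cells. No direction was read for the RBC-like value, which was 0.60 with free RNA subtracted.

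Aco1, the cytosolic aconitase that becomes iron regulatory protein 1 when it loses its iron-sulfur cluster, was highest in PT-like cells in both libraries. There it had 1285 UMIs in control (158 CPM) and 681 with JPI-289 (92.7 CPM), a log2 ratio of -0.77 (-0.91 to -0.63). In the JPI-289 library the interval of PT-like cells overlapped that of DCT/CNT-like cells, at 71.9 CPM, while in control PT-like cells stood apart from all other classes. The ratio was 0.50 (-0.18 to 1.22) in DCT/CNT-like cells, and in the other classes with enough UMIs the interval also included 0. Free RNA held 116 and 87.3 CPM.

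Ireb2, iron regulatory protein 2, differed little in PT-like cells, with 377 UMIs in control (46.4 CPM) and 359 with JPI-289 (48.8 CPM) and a ratio of 0.075 (-0.14 to 0.29). It was higher with JPI-289 in stroma-like cells, with 24 and 25 UMIs (27.9 and 63.7 CPM) and a ratio of 1.19 (0.33 to 2.06). That ratio was 0.90 at the lower clustering resolution and 0.96 with each library clustered alone. Free RNA held 65.8 and 66.9 CPM of Ireb2, above every class compared in its library. The stroma markers of the stroma-like class summed to 12047 and 6002 CPM, with 1 of 9 higher. Sums of other lists went both ways there, such as neutrophil (245 and 694 CPM) and EC (1252 and 948 CPM). Their part in the Ireb2 ratio was not tested. The EC-like ratio was 0.51 (-0.010 to 1.05) on 56 and 70 UMIs. The intervals of Ireb2 overlapped between neighbours in the order of classes, so few classes can be ordered. Among the classes further apart, PT-like cells (41.8 to 51.3 CPM) lay above TAL-like cells (14.0 to 35.5 CPM) in control. With JPI-289 they did so too (43.9 to 54.2 against 18.7 to 38.2 CPM).

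Gpx4, the peroxidase that guards membrane lipids, was highest in PT-like cells in both libraries and next in TAL-like cells. In PT-like cells it had 16246 UMIs in control (1998 CPM) and 12316 with JPI-289 (1676 CPM), a log2 ratio of -0.25 (-0.29 to -0.22), and the median of all genes tested in those cells was -0.19. TAL-like cells went the other way, with 996 and 1763 UMIs (1144 and 1453 CPM) and a ratio of 0.35 (0.23 to 0.46). EC-like cells had a ratio of -0.28 (-0.39 to -0.17), where the median of all genes was -0.18, and stroma-like cells of -0.38 (-0.60 to -0.16). In stroma-like cells the sign turned to 0.18 with each library clustered alone. In monocyte-like cells the levels were 502 and 501 CPM. Free RNA held 1082 CPM of Gpx4 in control and 954 CPM with JPI-289. Levels of EC-like (840 and 690 CPM), stroma-like (774 and 594 CPM) and monocyte-like cells lay below it, and those of PT- and TAL-like cells above it. With free RNA subtracted the ratio was -0.36 in PT-like, 0.37 in TAL-like, -0.36 in EC-like and -0.45 in stroma-like cells.

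Aifm2, the ferroptosis suppressor that works apart from Gpx4, was sparse, with 273 UMIs in all kept control cells and 297 with JPI-289. In PT-like cells it had 156 and 133 UMIs (19.2 and 18.1 CPM), a ratio of -0.084 (-0.43 to 0.26). Monocyte-like cells had the highest level in both libraries, at 34.2 and 26.1 CPM on 22 UMIs each, but the intervals overlapped those of the next class. In no measured class was the interval of the ratio apart from 0.

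Acsl4, which makes the lipids that oxidise in ferroptosis, differed in direction between classes. In TAL-like cells, the highest class in control, it had 225 UMIs in control (258 CPM, 226 to 294) and 143 with JPI-289 (118 CPM, 99.4 to 139), a ratio of -1.13 (-1.44 to -0.82). It was 0.53 (0.19 to 0.87) in CD principal-like cells on 111 and 218 UMIs, and 1.30 (0.33 to 2.64) in neutrophil-like cells on 8 and 77 UMIs. In PT-like cells it had 759 and 764 UMIs (93.4 and 104 CPM), a ratio of 0.15 with an interval that barely left out 0. DCT/CNT-like cells were highest in the JPI-289 library, at 183 CPM against 150 CPM in control. Free RNA held 161 and 134 CPM of Acsl4, above the levels of neutrophil-like (18.4 and 47.8 CPM) and PT-like cells in both libraries. In control only TAL-like cells lay above it, and with JPI-289 they lay below it. CD principal-like (113 and 162 CPM) and DCT/CNT-like cells lay below it in control and above it with JPI-289. With free RNA subtracted the ratio was -1.21 in TAL-like, 0.40 in PT-like and 0.62 in CD principal-like cells. The TAL-like ratio was -0.60 at the lower clustering resolution.

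Across all members, 2 of 10 (Tfrc and Slc40a1) were at least 2-fold lower in PT-like cells, where 23.7% of 11314 genes tested were at least 2-fold lower, and 0 of 10 were at least 2-fold higher, against 9.1% of genes. The median over the members was -0.17 and that of all genes -0.19. In TAL-like cells 3 of 10 were at least 2-fold lower (Tfrc, Slc40a1 and Acsl4, background 10.6%) and 1 higher (Fth1, background 8.51%). Tfrc and Slc40a1 were the 2 of 9 measured members that were at least 2-fold lower in DCT/CNT-like cells (background 9.72%, and 8.24% for higher). They were also the 2 of 9 at least 2-fold lower in monocyte-like cells (background 12.3%, and 10.8% for higher). In CD principal-like cells it was Tfrc alone of 10 (background 13.9%, and 8.71% for higher).

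In EC-like cells none of 9 measured members passed 2-fold in either direction (background 5.11% higher and 18.6% lower), nor did any of 8 in C1q+ macrophage-like cells (10.6% and 17.2%) or of 4 in CD intercalated-like cells (13.3% and 8.98%). Stroma-like cells had Ireb2 at least 2-fold higher among 7 measured (background 11.9%, and 13.9% for lower), and RBC-like cells Fth1 among 3 (17.4%, and 6.64% for lower). Neutrophil-like cells had Acsl4 at least 2-fold higher (background 11.5%) and Tfrc at least 2-fold lower (10.5%) among 8. The neutrophil-like ratio of Tfrc rests on 9 and 17 UMIs. Of these calls, 7 were under 2-fold in at least 1 alternative, with the direction kept. The ratio nearest to 0 was -0.78 for Tfrc in PT-like cells, -0.55 for Tfrc in neutrophil-like cells, 0.88 for Fth1 in TAL-like cells and 0.31 for Fth1 in RBC-like cells. It was -0.60 for Acsl4 in TAL-like cells, where 4 alternatives fell short of 2-fold, 0.75 for Acsl4 in neutrophil-like cells and 0.90 for Ireb2 in stroma-like cells.

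PT-like cells of the libraries lay in different clusters. Of 1801 control cells, 941 were in a cluster led by Npl, Keg1 and Acnat2, 445 in one led by G6pc, Cyp4a14 and Slc4a4, 227 in one led by Slc5a12, Gm26917 and Slc13a1, and 162 in one led by Slc22a6, Acy3 and Nat8. Of 1647 JPI-289 cells, 900 were in a cluster led by Plin2, Srxn1 and Maoa, which held 23 control cells, 406 in one led by Inmt, Krt20 and Cyp2e1, and 323 in one led by Fgb, Fgg and Fga. In these JPI-289 clusters the injured PT list scored highest (2.13, 2.81 and 1.99) and the PT list next (1.06, 2.18 and 1.05). In the control clusters named above the PT list scored highest. The PT-like ratios therefore set clusters of unlike marker scores against each other. Within PT-like cells the 5 markers of injured PT summed to 756 CPM in control and 7883 CPM with JPI-289, with 4 of 5 higher, and the 16 PT markers to 17957 and 13303 CPM, with 3 of 16 higher. No marker of either list was at 0, and their part in the ratios of the members was not tested.

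Slc40a1 had 71.0, 47.1, 196 and 28.6 CPM in the 4 larger control clusters, in the order above, and 15.5, 9.04 and 10.9 CPM in the JPI-289 clusters. The lowest of these control levels (28.6 CPM, 21.0 to 38.2) lay above the highest JPI-289 level (15.5 CPM, 10.0 to 22.8), but their intervals overlapped. The 23 control cells in the cluster led by Plin2 had no UMI of Slc40a1 or Tfrc among 27810 UMIs, which is too few to place them. Aco1 had 191, 146, 129 and 153 CPM in the 4 larger control clusters and 78.6, 112 and 73.4 CPM in the JPI-289 clusters, and here too the nearest intervals overlapped (104 to 157 in the control cluster led by Slc5a12 and 101 to 124 in the JPI-289 cluster led by Inmt). The 23 control cells had 2 UMIs of Aco1, or 71.9 CPM (8.71 to 260).

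Tfrc overlapped between clusters, with 21.2, 78.1, 68.2 and 44.8 CPM in control and 19.8, 24.5 and 32.7 CPM with JPI-289. The largest control cluster, led by Npl, was thus as low as the JPI-289 clusters. Fth1 ranged in control from 3542 CPM in the cluster led by Slc5a12 and Gm26917 to 58791 CPM in the one led by Npl, and with JPI-289 from 51848 to 73638 CPM. The cluster led by Slc5a12, with the nuclear RNA Gm26917 among its leading genes, was also lowest in Gpx4 (297 CPM) and highest in Slc40a1 (196 CPM). Without it the PT-like ratios were 0.35 for Fth1, 0.57 for Ftl1, -2.18 for Slc40a1 and -1.02 for Tfrc.

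**Figure D3:**
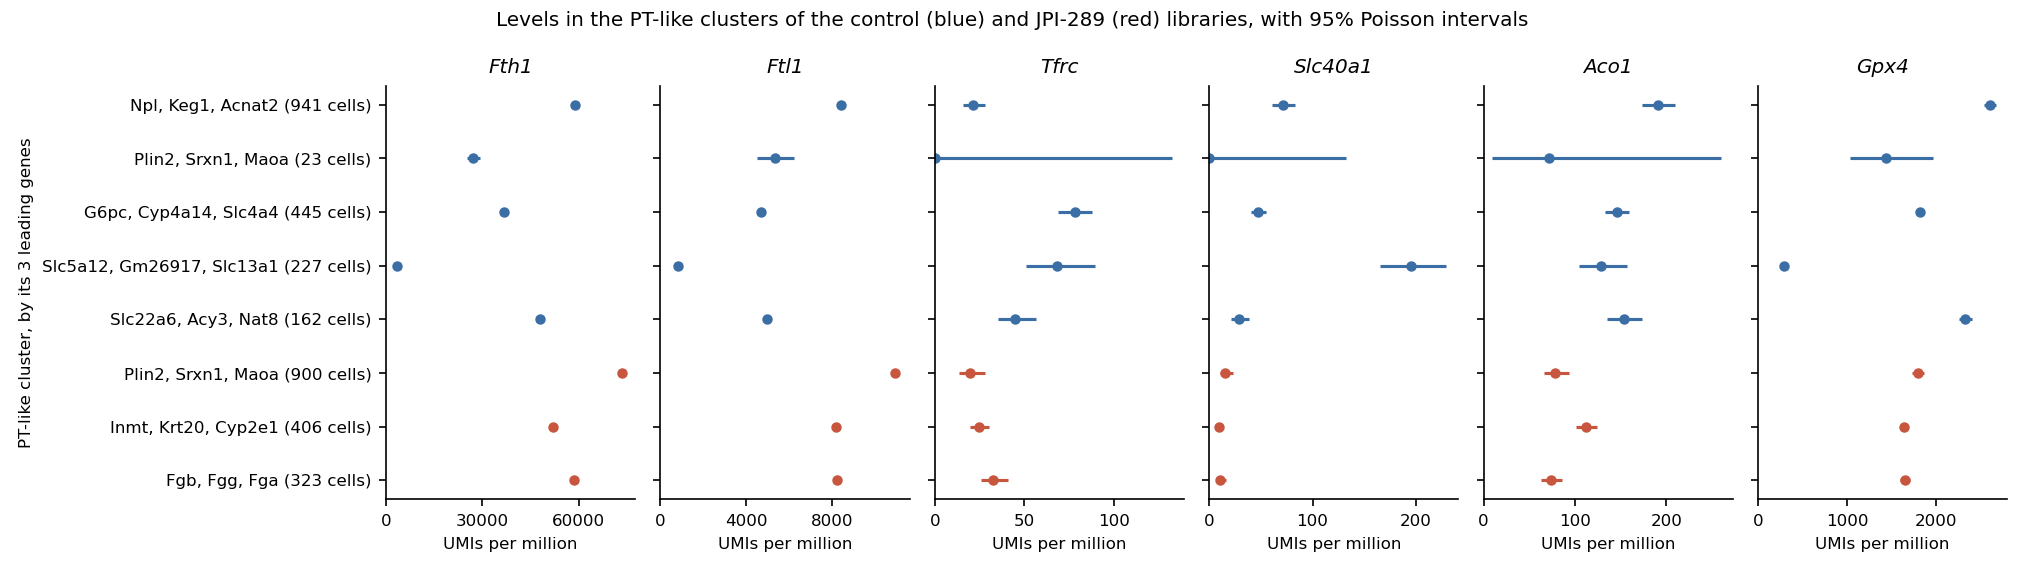
Levels of 6 members in CPM in each PT-like cluster with at least 20 cells of a library, control in blue and JPI-289 in red, with exact 95% Poisson intervals. The levels of Slc40a1 and Aco1 are higher in the 4 larger control clusters than in the 3 JPI-289 clusters, with overlap of the nearest intervals, while the levels of Tfrc, Fth1, Ftl1 and Gpx4 overlap in range.

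Of 83 other genes of these pathways, 66 had enough UMIs in PT-like cells, of which 17 were at least 2-fold higher and 9 at least 2-fold lower in the JPI-289 library, against the backgrounds of 9.1% and 23.7% given above. The group of cystine, glutathione and radical trapping had 9 of 17 higher and 1 lower, with a median log2 ratio of 1.00. Slc7a11, the cystine importer of system xc-, had 4 UMIs in control and 113 with JPI-289, a ratio of 4.80 (3.57 to 6.87). Gch1, which starts the synthesis of the radical trap tetrahydrobiopterin, had 22 and 246 UMIs (log2 ratio 3.60). Mt1, a metal-binding metallothionein, had 530 and 9568 CPM (4.17).

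The group of intracellular iron and haem had 4 of 21 measured genes higher and 2 lower. Hmox1, which releases iron from haem, had 138 and 322 CPM (1.22, 1.12 to 1.32), Blvrb, a biliverdin reductase, 221 and 489 CPM (1.14) and Pcbp2, an iron chaperone, 121 and 267 CPM (1.14). Ncoa4, the receptor that delivers ferritin to autophagy, had 647 and 199 UMIs, a ratio of -1.55 (-1.79 to -1.32). Summed over the PT-like class, the storage genes were higher and the gene for the ferritin receptor lower in the JPI-289 library. These ratios set unlike PT-like clusters against each other, as given above, and a link between them was not tested.

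Among genes of uptake, reduction and export, 1 of 12 measured was higher and 3 lower. Slc39a14, an importer of iron not bound to transferrin, had 158 and 325 UMIs (1.18, 0.91 to 1.47), opposite to Tfrc, and Steap2, a metalloreductase, had 1895 and 796 UMIs (-1.11, -1.23 to -0.99). Of 16 measured genes of lipid peroxidation and the ferroptosis response, 3 were higher and 3 lower. Atf4, a transcription factor of the stress response that also drives Slc7a11, had 46.4 and 190 CPM (2.04), and Sat1, a polyamine acetyltransferase, 793 and 2343 CPM (1.56). Nox4, an oxidase that makes hydrogen peroxide, had 244 and 79.2 CPM (-1.63), Pla2g6, a phospholipase that removes oxidised lipids, 79 and 27 UMIs (-1.39), and Acsl3, which activates monounsaturated fatty acids, 93 and 35 UMIs (-1.25).

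**Figure D4:**
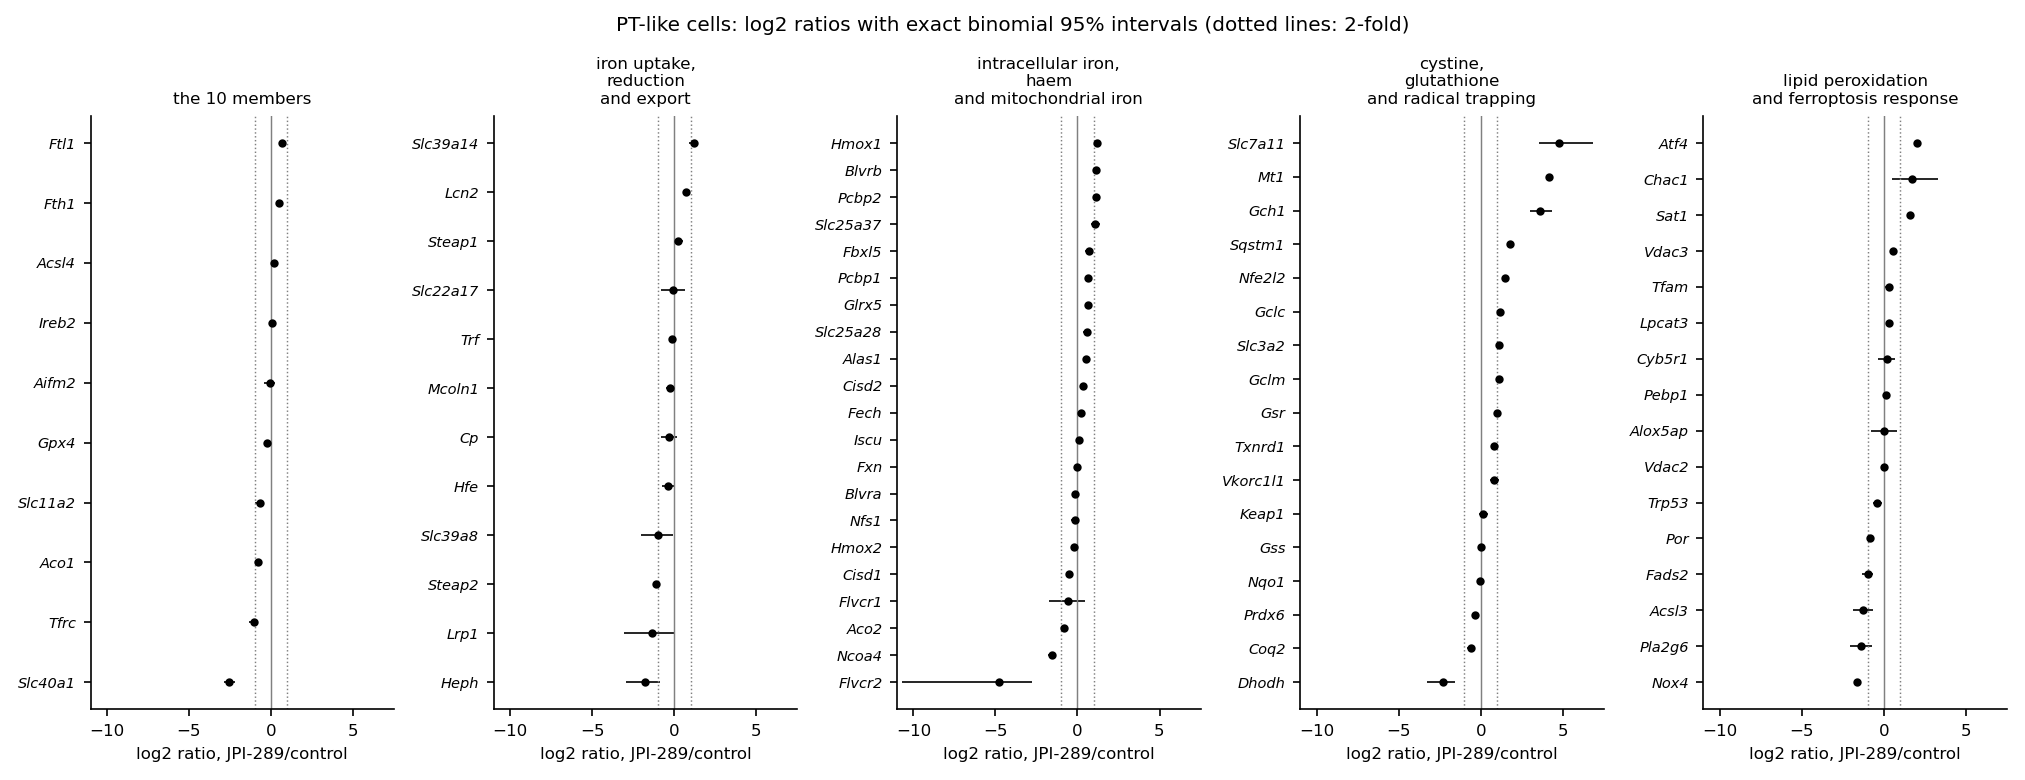
Log2 ratios of JPI-289 over control in PT-like cells for the 10 members and the 66 measured genes of 4 pathway groups, with exact 95% binomial intervals and dotted lines at 2-fold. Slc7a11, Mt1 and Gch1 lie furthest to the right, and Slc40a1 is the lowest of the members.

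Of the radical trapping genes measured in the distal nephron, 3 of 15 were at least 2-fold higher and 2 lower in TAL-like cells, where 8.51% and 10.6% of all genes were. In DCT/CNT-like cells 6 of 14 were higher and 0 lower (all genes 8.24% and 9.72%), and in CD principal-like cells 4 of 15 were higher and 0 lower (all genes 8.71% and 13.9%). The median ratio of the group was 0.36, 0.77 and 0.56 in these classes, beside -0.037, -0.0033 and -0.069 for all genes. Nfe2l2, the transcription factor of the antioxidant response, had a ratio of 1.16 in TAL-like, 1.78 in DCT/CNT-like and 1.58 in CD principal-like cells. CD principal-like cells had a median depth of 9236 and 1539 UMIs. Their own markers summed to 12252 and 7394 CPM (0 of 7 higher), their neutrophil markers to 10.1 and 536 CPM and their TAL markers to 200 and 40.2 CPM. In DCT/CNT-like cells the TAL markers summed to 1818 and 426 CPM. The part of these differences in the ratios was not tested.

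Lcn2, an iron-carrier protein released by injured tubules, was among the leading genes of the TAL-like cluster, with 14246 CPM in control and 24026 CPM with JPI-289 in TAL-like cells (0.75). It was lower in DCT/CNT-like cells (5746 and 2049 CPM, -1.49), where the TAL markers also summed to 1818 CPM in control and 426 CPM with JPI-289. In EC-like cells Lcn2 was higher (457 and 3048 CPM, 2.74), with an estimated free RNA share of 16.1% in control and 20.4% with JPI-289. EC-like cells also came from different clusters, with 203 control and 33 JPI-289 cells in one led by Plvap and 2 and 187 in one led by Igfbp3. Marker lists of other cells went both ways in EC-like cells. With JPI-289 the RBC list summed higher (119 and 1363 CPM, all 7 markers higher), as did the injured PT list (352 and 887 CPM, all 5 higher). The TAL list also summed higher (87.4 and 224 CPM, 2 of 7 markers higher), as did the DCT/CNT and urothelium lists. Lower were the sums of the PT (1964 and 1301 CPM), C1q+ macrophage (1568 and 922 CPM) and podocyte lists (874 and 510 CPM). The CD principal, CD intercalated, stroma, monocyte, neutrophil and platelet lists summed lower too. No RBC or injured PT marker was at 0 with JPI-289, 1 TAL marker was, and the part of these lists in the Lcn2 ratios was not tested.

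The genes whose levels most resembled those of a member were sought over the 23 sums of a class in a library with at least 50 cells, among 7519 genes, by Pearson's r of log2(CPM + 10). The sums share their library and free RNA, so r is a description only. Ftl1 was nearest to its copy Ftl1-ps1 (0.97), then Slc43a2 (0.85) and Frrs1 (0.81), and Fth1 to Msrb1 (0.77), Tpd52 (0.76) and Ftl1 (0.74). Aco1 was nearest to Adk (0.90), Hint2 (0.90) and Decr1 (0.89), and Gpx4 to Ndufb3 (0.89), Acadvl (0.88) and Ybx1 (0.87). Slc40a1 was nearest to Osgin1 (0.78), Sema4a (0.74) and Mthfs (0.74), and Tfrc to Mfsd4b1 (0.83), Kcnj16 (0.79) and B230118H07Rik (0.79). For the sparser members Ireb2 was nearest to Zfyve1 (0.92), Slc11a2 to Asb13 (0.85), Aifm2 to Eno1 (0.89) and Acsl4 to Dtnb (0.85).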

How the data were processed

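Single cells of 1 control and 1 JPI-289 treated postischemic kidney were profiled with a 10x Genomics 5′ kit. The deposited values are unnormalized UMI counts of each gene in every barcode, cells and empty droplets alike, which the authors made with Cell Ranger 5.0.1 on mm10 per the submitters' notes. Cells were called by total UMIs and then, from 500 UMIs, by difference from empty droplets (10000 simulations, false discovery rate 0.01), which gave 4302 and 5430. Those over 50% mitochondrial UMIs (544 and 394) were left out. Scrublet marked 2 of 8794 cells and so did not work, and doublets remain. Cells were clustered (2000 variable genes without the members and pathway genes, 30 components, 20 neighbours, Leiden resolution 1) and clusters named from marker lists at a score of at least 0.75 with 3 markers detected. A cluster where the injured PT list scored highest was called PT-like if the PT list came next and scored at least 0.75. Classes with at least 20 cells in each library were compared. This left out podocyte-like (13 and 51), T/NK-like (6 and 97) and unnamed (183 and 396) cells. UMIs were summed per class and library, 0.5 was added for log2 ratios, and genes with at least 20 UMIs over both libraries were measured. Free RNA was taken from barcodes under 100 UMIs, and its share in a class from the marker lists of unrelated cell types. The members, gene lists and rules were chosen with earlier results of these data known. Pathway genes are named by rule, the 3 furthest in each direction per group with at least 100 UMIs and 2-fold. The ratio intervals and the cell calling were tested on simulated data, and the other steps were not. The alternatives were calling by total UMIs only, a minimum of 1000 UMIs, a mitochondrial limit of 20%, leaving out the 5% highest doublet scores, resolution 0.5, each library clustered alone, members allowed in clustering, nuclear totals, centring, equal weight of cells, gene minimums of 100 and 5 UMIs, 1 CPM added and free RNA subtracted. Leaving out the PT-like cluster with Gm26917 was chosen after seeing the data. The versions were scanpy 1.11.5, scipy 1.17.1, leidenalg 0.10.2, matplotlib 3.10.9 and numpy 2.4.6 under Python 3.11.15.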

Additional observations from a re-analysis of the deposited data

Results flagged for a closer look

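Acsl4 was at least 2-fold higher with JPI-289 in one class and at least 2-fold lower in another, with both intervals apart from 0. Its log2 ratio was 1.30 in neutrophil-like cells and -1.13 in TAL-like cells. The difference between these ratios was not tested. Over the alternatives that gave a value, the ratio was 0.75 to 4.51 in neutrophil-like cells and -1.32 to -0.60 in TAL-like cells. The neutrophil-like ratio rests on 8 and 77 UMIs, and its levels (18.4 and 47.8 CPM) lay below free RNA (161 and 134 CPM). The 4.51 is the value with free RNA subtracted. The direction in neutrophil-like cells is therefore uncertain.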

How the results depend on the processing

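With 1 library per group, no leave-one-out fit could be made. No paired analysis was possible because each group is 1 library, so the only pair is the comparison itself. The median ratio of the members in PT-like cells, -0.17, ranged from -0.28 to 0.023 over the alternatives, with its sign changed on centring. No member was at least 2-fold higher there in any alternative. The count at least 2-fold lower, 2 of 10, became 1 of 10 at 20% mitochondrial UMIs, with each library clustered alone, with centring and with free RNA subtracted, where Tfrc had ratios of -0.97, -0.78, -0.86 and -0.97. Slc40a1 kept at least 2-fold in PT-like cells in all 15 (-3.04 to -2.18). No ratio past 2-fold changed its sign. With equal weight of each cell 24 of 84 ratios moved beyond their counting interval, and with members allowed in clustering 0 of 87. Depth limits Slc11a2, Ireb2 and Aifm2 outside PT-like cells, where most intervals include 0.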

Other observations

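Of 19 measured genes of intracellular iron and haem, 2 were at least 2-fold higher and 2 lower with JPI-289 in C1q+ macrophage-like cells (all genes 10.6% and 17.2%), and 1 higher and 1 lower in monocyte-like cells (10.8% and 12.3%). In neutrophil-like cells it was 1 higher and 2 lower of 18 (11.5% and 10.5%). The genes named here and Cd163, of the group of uptake and export, were among those furthest in their class. Hmox1 was lower with JPI-289 in C1q+ macrophage-like cells (1357 and 401 CPM, log2 ratio -1.76, -1.98 to -1.54) and in neutrophil-like cells (98 and 135 UMIs, 225 and 83.8 CPM, -1.43, -1.81 to -1.04), where the PT-like ratio was 1.22. The difference between classes was not tested. Blvrb, a biliverdin reductase, was lower in C1q+ macrophage-like (-1.77) and monocyte-like cells (-1.97), and Cd163, the receptor that takes up haemoglobin bound to haptoglobin, had 153 and 30 UMIs in monocyte-like cells (-2.72, -3.35 to -2.17). In monocyte-like cells Hmox1 had 2939 and 2878 CPM (-0.030).

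Marker lists also differed inside these classes. In C1q+ macrophage-like cells the C1q+ macrophage markers summed to 14633 CPM in control and 7334 CPM with JPI-289, with 0 of 8 higher and none at 0, and the RBC markers to 86.6 and 3596 CPM, with 6 of 7 higher. In monocyte-like cells the C1q+ macrophage markers summed to 2549 and 860 CPM, with 0 of 8 higher, and in neutrophil-like cells the monocyte markers to 4837 and 1381 CPM, with 3 of 8 higher. Their part in the ratios of Hmox1, Blvrb and Cd163 was not tested.

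Among the genes of the same group past 2-fold on the higher side, Glrx5, a glutaredoxin of iron-sulfur cluster assembly, had a ratio of 2.03 (1.55 to 2.56) in C1q+ macrophage-like and 1.08 (0.49 to 1.78) in neutrophil-like cells. Slc25a28, a mitochondrial iron carrier, had 1.52 (1.08 to 2.01) in monocyte-like and 1.06 (0.57 to 1.58) in C1q+ macrophage-like cells. The marker differences given above apply here too, with RBC markers at 86.6 and 3596 CPM in C1q+ macrophage-like cells. The estimated free RNA share of that class was 5.53% in control and 12.5% with JPI-289. The part of these differences in the Glrx5 and Slc25a28 ratios was not tested.

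An unnamed cluster led by Neat1, Gm26917 and Malat1 had 51 control and 301 JPI-289 cells. It held 8 and 214 UMIs of Ireb2, or 76.1 CPM (32.8 to 150) and 240 CPM (209 to 274). With JPI-289 this was above the highest class compared, stroma-like cells at 63.7 CPM (41.3 to 94.1). In control the interval overlapped that of the highest class, PT-like cells (41.8 to 51.3 CPM). The unnamed cluster's cells of the JPI-289 library had 4898 CPM of Fth1 and 213 CPM of Gpx4, below each compared class in that library.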
